A study of Homo sapiens with 9 samples.

Results

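Long noncoding RNAs were measured in HCT116 cells, an established human colorectal carcinoma line, by RNA sequencing of 9 libraries. The set was fixed by name as 9 transcripts widely studied in cancer, namely MALAT1, NEAT1, KCNQ1OT1, PVT1, CCAT1, UCA1, H19, MIR31HG and TUG1, and every table row with one of these gene names was taken. This gave 8 genes of 33861 in the table, and all 8 were among the 20988 genes with enough counts to test. CCAT1 was not analysed here. The study asked how activin A, a ligand of the transforming growth factor family, and hepatocyte growth factor (HGF), the ligand of the MET receptor, act in sequence on these cells. Control cells (NC in the labels) were compared with cells given 100 ng/mL activin A for 5 days and with cells given activin A and then 20 ng/mL HGF for another 5 days, with 3 libraries in each of the 3 groups. No group had HGF alone, and the culture time of the control cells was not given. Whether activin A was kept during the HGF days was not given either. HGF, the end of activin and the longer culture therefore cannot be told apart in the activin + HGF group. Nothing in the labels says that libraries of a group came from separate cultures, and the p-values then measure only the spread between these libraries.

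Long noncoding RNAs are transcribed and often spliced like messenger RNAs but are not translated, and many act in the nucleus. NEAT1 is the scaffold of paraspeckles, nuclear bodies that hold RNA-binding proteins, and MALAT1, from the neighbouring gene, collects in nuclear speckles, where splicing factors are stored. KCNQ1OT1 silences neighbouring genes on the paternal chromosome, H19 is an imprinted maternal transcript and the host of miR-675, MIR31HG hosts miR-31, PVT1 neighbours the MYC oncogene, UCA1 was described in bladder cancer, and TUG1 was named for its upregulation by taurine.

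Some of the sequences behind these roles are shown because the transcripts are known mainly by their ends and by the small RNAs cut from them. The long NEAT1 isoform (22743 bases) and MALAT1 (8708 bases) both lack an ordinary poly(A) tail and end in a triple helix formed by U-rich runs and an A-rich tract. The GENCODE 29 transcripts are written with T, 5′ to 3′, and the capitals mark a pair of U-rich runs and the A-rich tract that ends each window of 130 bases.
NEAT1, bases 22614 to 22743: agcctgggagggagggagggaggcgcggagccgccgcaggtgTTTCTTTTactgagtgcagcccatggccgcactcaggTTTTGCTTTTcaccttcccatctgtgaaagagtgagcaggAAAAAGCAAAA
MALAT1, bases 8226 to 8355: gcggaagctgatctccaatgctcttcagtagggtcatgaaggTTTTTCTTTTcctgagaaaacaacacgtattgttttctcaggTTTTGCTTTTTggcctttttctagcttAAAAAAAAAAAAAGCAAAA
The NEAT1 window is the end of its annotated transcript, whereas 353 annotated bases follow the MALAT1 window.

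The small RNAs hosted by MIR31HG and H19 are given as RefSeq lists them on GRCh38.p14, with the seed, bases 2 to 8, in capitals.
hsa-miR-31-5p, chr9:21512158-21512178, minus strand: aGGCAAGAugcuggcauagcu
hsa-miR-675-5p, chr11:1996800-1996822, minus strand: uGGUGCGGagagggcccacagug
hsa-miR-675-3p, chr11:1996768-1996787, minus strand: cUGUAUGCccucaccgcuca
The 3 seeds differ from each other. These libraries do not measure mature microRNAs. The MIR675 row held 1 count in every library, as did 148 rows of the table in all, and MIR31 held at most 0.064 CPM (counts relative to the library size, scaled by the trimmed mean of M values, TMM).

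The libraries held 57453977 to 77016167 counts, and the 8 long noncoding RNAs together took 0.0164% to 0.0462% of them. Epithelial markers were present in all 9 libraries, with KRT8 at 543 to 1830 CPM and EPCAM at 186 to 495 CPM, but VIL1 and LGALS4, markers of differentiated colon epithelium, reached at most 0.213 and 0.768 CPM. The leukocyte marker PTPRC reached at most 0.149 CPM and the fibroblast collagen COL1A2 at most 0.342 CPM, while the macrophage marker CD68 ranged from 1.23 to 22.6 CPM. The summed level of 6 immune markers was 2.08 to 3.89 CPM in control, 11 to 23.4 CPM in activin and 17.5 to 25.4 CPM in activin + HGF libraries, and that of 5 fibroblast markers was 25.5 to 27.0, 47.6 to 54.6 and 34.0 to 41.9 CPM, most of it COL1A1. The part of these markers in the results was not tested. The library activin + HGF replicate 1 stood apart. It had 91 genes at 1 CPM or more and at least 4-fold above every one of the other libraries, among them 19 small nucleolar RNAs and 30 genes annotated only with long noncoding transcripts, and no other library had more than 3 such genes. The counts of called long noncoding RNAs and the KCNQ1OT1 result are therefore also given without it. Other values that involve this library are not all given without it. Activin replicate 2 also lay away from its group when all counts were compared. The chi-square per degree of freedom was 195 and 239 for its pairs with the other activin libraries and 77.9 between those. It was 229 and 249 for the pairs of activin + HGF replicate 1 and 59.2 between the other activin + HGF libraries.

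The level per transcript length put UCA1 first in control cells and MALAT1 first after either treatment. In control cells, UCA1 was at 16.1 ± 4.68 FPKM (fragments per kilobase of transcript, scaled to the library size, as deposited; SD, n = 3), MALAT1 at 10.6 ± 5.37, TUG1 at 5.68 ± 0.428 and PVT1 at 1.43 ± 0.0603 FPKM. MIR31HG, H19 and NEAT1 followed at 0.68 ± 0.141, 0.657 ± 0.12 and 0.617 ± 0.0551 FPKM, and KCNQ1OT1 was lowest at 0.0333 ± 0.00577 FPKM. The ranges of UCA1 and MALAT1 overlapped, as did those of MALAT1 and TUG1 and those of MIR31HG, H19 and NEAT1, so that the order within these runs did not exceed the spread. In activin cells, MALAT1 (16.7 ± 10.7 FPKM), TUG1 (5.16 ± 2.31) and UCA1 (5.05 ± 0.814) overlapped, and NEAT1 came next at 1.75 ± 0.734 FPKM. In activin + HGF cells, MALAT1 at 14.1 ± 5.09 FPKM lay clear of TUG1 at 2.3 ± 0.731 and UCA1 at 2.19 ± 0.193 FPKM, which overlapped. The order depends on the exon length assumed. As CPM per kilobase of GENCODE 29 exons, PVT1 was at 7.34 in control and 7.67 in activin + HGF cells, above TUG1 at 6.33 and 3.11, and MIR31HG was at 2.89 in control cells, while UCA1 stayed first in control cells and MALAT1 after either treatment.

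**Figure D1:**
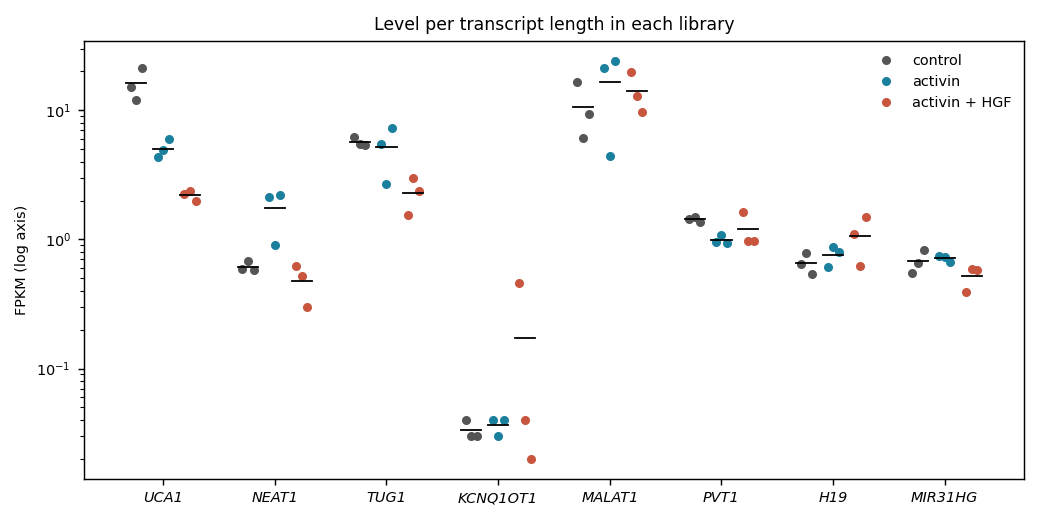
Deposited FPKM of each long noncoding RNA in each library on a log axis, with control libraries in grey, activin libraries in blue, activin + HGF libraries in red and a line at each group mean. UCA1 goes from 16.1 to 5.05 and 2.19 FPKM, and 1 activin + HGF library of KCNQ1OT1 lies at 0.46 FPKM.

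Activin treatment moved 2 of the 8 long noncoding RNAs past the threshold. UCA1 fell and NEAT1 rose, where a call means an adjusted p under 0.05, from edgeR's quasi-likelihood test and adjusted over all genes tested by the Benjamini-Hochberg method. That is 25.0% of the set beside 18.0% of all genes tested, of which 9.58% were higher and 8.41% lower. With so few members, the share of the set is a description only. Between activin and activin + HGF cells 2 of the 8 were called, with UCA1 and NEAT1 both lower, beside 12.9% of all genes (7.41% higher and 5.45% lower). Activin + HGF against control gave 3 calls of 8, with UCA1 and TUG1 lower and KCNQ1OT1 higher, or 37.5% beside 31.4% of all genes (16.4% higher and 15.0% lower). Without the library activin + HGF replicate 1, the last count was 1 of 8, and the other counts were 3 of 8 for activin against control and 1 of 8 for activin + HGF against activin. Among the 3578 tested genes annotated only with long noncoding transcripts, 7.77%, 7.35% and 16.9% were called in the same order. The median log2 fold change of the set was 0.01, 0.06 and 0.01, beside 0.02, -0.04 and -0.03 over all genes tested.

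**Figure D2:**
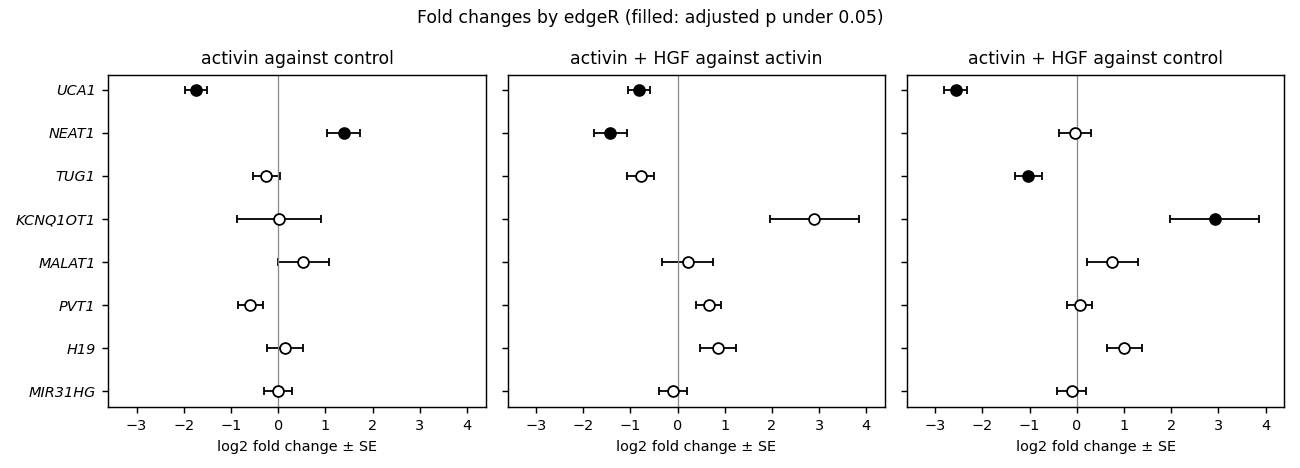
Log2 fold change of each long noncoding RNA in the 3 comparisons, with the approximate standard error as a bar and filled points for an adjusted p under 0.05. UCA1 is filled and left of 0 in each panel, NEAT1 is right of 0 with activin and left of 0 when HGF follows, and KCNQ1OT1 has the widest bars.

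UCA1 (ENSG00000214049, chr19:15828206-15836327, plus strand) showed a stepwise decline. The control libraries had 68.8, 56.9 and 98.5 CPM, the activin libraries 18.1, 23.8 and 25.1 CPM and the activin + HGF libraries 14.2, 12.7 and 10.9 CPM. The groups did not overlap, with every activin library below every control library and every activin + HGF library below every activin library. In bulk libraries such as these, fewer cells with an RNA and less of it per cell cannot be told apart. UCA1 was 3.35-fold lower with activin than in control cells (log2 fold change -1.74, SE 0.238, adjusted p = 0.000997 by edgeR's quasi-likelihood test) and 5.93-fold lower with activin + HGF than in control cells (log2 fold change -2.57, SE 0.245, adjusted p = 7.89e-05). Both calls held with each of the 9 libraries left out in turn. The step from activin to activin + HGF was smaller, at 1.77-fold (log2 fold change -0.82, SE 0.234, adjusted p = 0.0436 by the same test), and it lost its call when any activin or activin + HGF library, or control replicate 1, was left out (adjusted p up to 0.119).

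The cytochrome genes of the CYP4F cluster around UCA1 on chromosome 19 differed in direction. CYP4F2, the nearest of them at 41.7 kb, was low and fell with activin + HGF over control, from 1.24 ± 0.339 to 0.24 ± 0.0469 CPM (SD, n = 3; log2 fold change -2.36, SE 0.621, adjusted p = 0.0159 by edgeR's quasi-likelihood test, but 0.0629 without control replicate 3 and 0.0502 without activin + HGF replicate 3), and was not called with activin (-0.46, adjusted p = 0.653). CYP4F11, a fatty acid and vitamin K hydroxylase, rose with activin over control, from 18.0 ± 0.657 to 41.9 ± 1.5 CPM (SD, n = 3). Its log2 fold change was 1.22 (SE 0.181, adjusted p = 0.00148 by edgeR's quasi-likelihood test). CYP4F12 rose in the same comparison from 6.15 ± 0.667 to 12.6 ± 1.62 CPM (log2 fold change 1.04, SE 0.221, adjusted p = 0.00966 by the same test). CYP4F11 and CYP4F12 were at 28.3 ± 5.27 and 11.9 ± 2.32 CPM in activin + HGF cells, without a call against activin. Against control, activin + HGF gave log2 fold changes of 0.66 for CYP4F11 (adjusted p = 0.0189 by the same test) and 0.95 for CYP4F12 (adjusted p = 0.00901). The CYP4F11 call was lost without any 1 control library, activin + HGF replicate 2 or activin + HGF replicate 3. The CYP4F12 call was lost without control replicate 1. Of the 6 tested protein-coding genes within 250 kb of UCA1, 2 rose and none fell with activin, and with activin + HGF against control 3 rose and 1 fell. Among all genes tested, 9.58% were higher and 8.41% lower with activin, and 16.4% and 15.0% with activin + HGF against control. The genes whose centred log2 CPM over the 9 libraries lay nearest to that of UCA1 were SRSF3, a splicing factor, and ORC1, a subunit of the origin recognition complex, with root mean square differences of 0.26 and 0.27 log2 units. SRSF3 went from 205 to 50.9 and 32.0 CPM over control, activin and activin + HGF cells.

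NEAT1 (ENSG00000245532, chr11:65422774-65445540, plus strand) was highest in activin cells. The control libraries had 14.6, 17.7 and 14.7 CPM, the activin libraries 48.3, 23.9 and 50.7 CPM and the activin + HGF libraries 21.7, 15.1 and 8.97 CPM. Every activin library lay above all libraries of both other groups, though activin replicate 2 was close to activin + HGF replicate 1. NEAT1 was 2.62-fold higher with activin than in control cells (log2 fold change 1.39, SE 0.35, adjusted p = 0.0209 by edgeR's quasi-likelihood test) and 2.69-fold lower with activin + HGF than with activin (log2 fold change -1.43, SE 0.35, adjusted p = 0.0275). Against control, activin + HGF cells differed by a log2 fold change of -0.04 (SE 0.344, adjusted p = 0.948 by the same test). The activin call was lost without any 1 control library, activin replicate 1 or activin replicate 3 (adjusted p up to 0.079), and the second call was lost without activin replicate 1, activin replicate 3, activin + HGF replicate 2 or activin + HGF replicate 3 (adjusted p up to 0.0894). The counts pool the short and the long NEAT1 isoform, which share their first part, so that the form that builds paraspeckles was not measured on its own. The nearest patterns over the 9 libraries were those of the pseudogene PPIAP53 and of ANKK1, a kinase gene, both at most 1.4 CPM on average in any group, with root mean square differences of 0.21 and 0.22 log2 units.

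**Figure D3:**
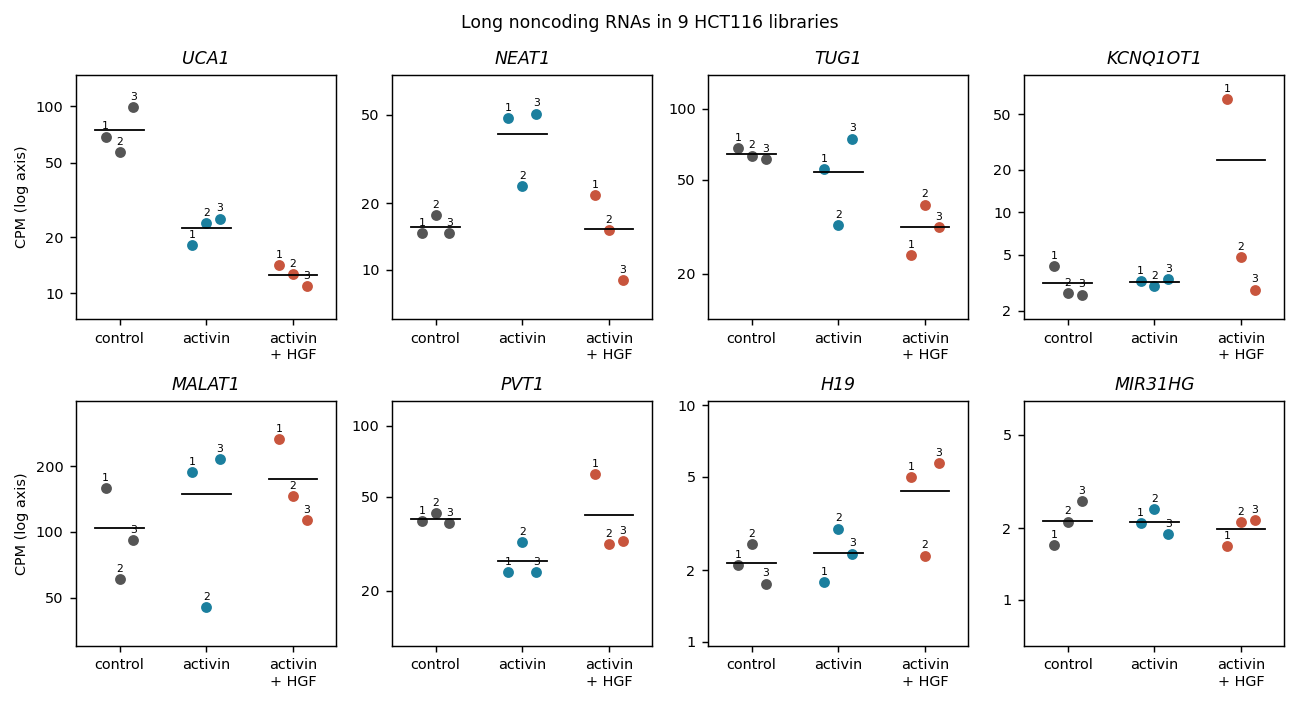
CPM of the 8 long noncoding RNAs in each library on log axes, with numbered points for the libraries and a line at each group mean. UCA1 steps down without overlap, NEAT1 peaks in the activin libraries, TUG1 is lowest in the activin + HGF libraries, and a single activin + HGF library of KCNQ1OT1 stands at 63.6 CPM.

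In the activin cells, in which NEAT1 was higher, 10 of 18 listed messenger RNAs of paraspeckle proteins fell, none rose and 8 did not pass the test, beside 8.41% of all genes tested that were lower and 9.58% that were higher. The list median log2 fold change was -0.64 beside 0.02 for all genes. SFPQ, an essential paraspeckle protein, fell from 372 ± 11.6 to 108 ± 23.5 CPM (SD, n = 3; log2 fold change -1.78, adjusted p = 0.0024 by edgeR's quasi-likelihood test), PSPC1 from 72.6 ± 8.1 to 27.8 ± 1.17 CPM (log2 fold change -1.38, adjusted p = 0.000468), and CPSF6 from 129 ± 2.64 to 37.0 ± 4.07 CPM (log2 fold change -1.8, adjusted p = 0.00172). NONO, the partner of SFPQ, was at 300.0 ± 18.0 CPM in control and 261 ± 54.1 CPM in activin cells (log2 fold change -0.2, adjusted p = 0.49 by the same test). With activin + HGF against control, 9 of the 18 fell and none rose, beside 15.0% of all genes tested that were lower and 16.4% that were higher. The activin count was 4 without control replicate 1, control replicate 3 or activin replicate 1 and 5 without control replicate 2, and the count against control for activin + HGF was 5 without control replicate 2.

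MALAT1 (ENSG00000251562, chr11:65497688-65506469, plus strand) varied more within groups than between them. The control libraries had 159, 61.0 and 91.4 CPM, the activin libraries 188, 45.3 and 215 CPM and the activin + HGF libraries 265, 146 and 113 CPM. The 3 groups overlapped, and the activin libraries alone spanned 5.72-fold in raw counts. The log2 fold changes were 0.53 (SE 0.54), 0.22 (SE 0.539) and 0.75 (SE 0.542) for activin against control, activin + HGF against activin and activin + HGF against control, with adjusted p = 0.567, 0.822 and 0.325 by edgeR's quasi-likelihood test. The second value turned to -0.21 when libraries were scaled by their totals alone. Differences within these errors were not detectable with 3 libraries a group.

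Of 16 listed messenger RNAs of nuclear speckle proteins and MALAT1-binding proteins, 11 fell with activin and none rose, beside 8.41% of all genes tested that were lower, and this count was 5 without any 1 control library. The list median log2 fold change was -0.92 beside 0.02 for all genes. SRSF3 fell most (log2 fold change -2.01, adjusted p = 4.18e-05 by edgeR's quasi-likelihood test), followed by SRSF7 (-1.63, adjusted p = 0.0005) and PNN, which encodes pinin (-1.49, adjusted p = 0.0344). SON, a scaffold of speckles, went from 277 ± 12.8 to 139 ± 46.7 CPM (log2 fold change -1.0, adjusted p = 0.0153 by edgeR), while METTL16, which binds the MALAT1 triple helix, was at 35.8 ± 20.2 and 31.1 ± 14.4 CPM (adjusted p = 0.811). With activin + HGF against activin, SRSF3 alone was called, not so without activin replicate 1, activin + HGF replicate 2 or activin + HGF replicate 3. Against control 8 of the 16 fell, beside 15.0% of all genes tested that were lower. The activin count was 7 without activin replicate 1 or activin replicate 3.

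Of the 19 protein-coding genes within 250 kb of NEAT1 that were tested, edgeR called none with activin, where 4 had an unadjusted p under 0.05 and DESeq2 called 0, while 4 rose and 2 fell with activin + HGF against activin. MALAT1 also had 19 tested neighbours with the same counts, and 17 of these were shared with NEAT1. Among all genes tested, 18.0% were called with activin, and 7.41% were higher and 5.45% lower with activin + HGF against activin. LTBP3, a binder of latent transforming growth factor beta next to NEAT1, was at 99.6 ± 7.89 CPM in control, 119 ± 28.9 in activin and 283 ± 26.9 in activin + HGF cells (log2 fold change 1.25, SE 0.192, adjusted p = 0.00589 for activin + HGF against activin by edgeR's quasi-likelihood test). FRMD8 was not called in any comparison.

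TUG1 (ENSG00000253352, chr22:30969245-30978847, plus strand) was lower in activin + HGF cells. The control libraries had 68.2, 63.2 and 61.3 CPM, the activin libraries 55.6, 32.1 and 74.7 CPM and the activin + HGF libraries 23.9, 39.2 and 31.5 CPM. All activin + HGF libraries lay below all control libraries, and activin replicate 2 lay among them. TUG1 was 2.04-fold lower with activin + HGF than in control cells (log2 fold change -1.03, SE 0.29, adjusted p = 0.0219 by edgeR's quasi-likelihood test). The differences for activin against control (log2 fold change -0.25, SE 0.287, adjusted p = 0.621) and for activin + HGF against activin (-0.78, SE 0.288, adjusted p = 0.099) did not pass the same test, though the latter did without activin replicate 2 (adjusted p = 0.0121). The call was lost without any 1 control library, activin + HGF replicate 1 or activin + HGF replicate 3 (adjusted p up to 0.0707). DENND4A and DISP1 had the nearest patterns, with root mean square differences of 0.11 and 0.12 log2 units, and DENND4A went from 13.4 to 12.4 and 6.39 CPM over the 3 groups.

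TUG1 starts beside MORC2, a chromatin remodeller transcribed in the opposite direction, and its promoter is shown for this reason. The RefSeq window of GRCh38.p14, chr22:30969015-30969314 on the plus strand, runs from 250 bases before to 50 bases after the start and is 67.7% G or C. The capitals mark the E-box CACGTG and the box CCAAT, which reads ATTGG on the other strand.
TUG1 promoter: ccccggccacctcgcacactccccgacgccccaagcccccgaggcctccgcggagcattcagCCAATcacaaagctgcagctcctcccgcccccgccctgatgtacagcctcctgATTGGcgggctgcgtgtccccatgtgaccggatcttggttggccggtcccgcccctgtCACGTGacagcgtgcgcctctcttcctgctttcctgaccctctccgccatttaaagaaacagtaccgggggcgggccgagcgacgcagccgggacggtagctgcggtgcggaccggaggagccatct
CACGTG stood in 7.26% and CCAAT, read on both strands, in 34.6% of 35116 promoters of the same length. CAGAC, the core of the SMAD binding element, read on both strands, stood in 45.3% of these promoters, and the TUG1 and MIR31HG windows and both MALAT1 windows did not contain it, whereas the H19 window contained it 1 time. Promoter sequences of 4 of the 9 genes were used. MORC2 itself was at 45.1 ± 2.65, 55.7 ± 3.98 and 37.5 ± 3.41 CPM over control, activin and activin + HGF cells. It fell between activin and activin + HGF (log2 fold change -0.57, SE 0.155, adjusted p = 0.0383 by edgeR's quasi-likelihood test), a call that was lost with 6 of the 9 libraries left out in turn. Since the strand used for counting is not given in the sources used here, reads of overlapping or antisense genes, such as those of KCNQ1OT1 and KCNQ1, may not be separated.

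KCNQ1OT1 (ENSG00000269821, chr11:2608328-2699994, minus strand), which lies antisense within KCNQ1, was called from a single library. The control libraries had 4.15, 2.66 and 2.6 CPM, the activin libraries 3.24, 2.98 and 3.33 CPM and the activin + HGF libraries 63.6, 4.8 and 2.82 CPM. Activin + HGF replicate 1, with 3465 counts beside 330 and 181 in its group, was 13.3-fold above the next library, and activin + HGF replicate 3 lay among the control libraries. The fit gave a log2 fold change of 2.92 for activin + HGF against control (SE 0.949, adjusted p = 0.0388 by edgeR's quasi-likelihood test). Without that library the log2 fold change was 0.28 and the adjusted p 0.564. The call also went when any control or activin library was left out. KCNQ1OT1 was not called for activin against control (log2 fold change 0.02, SE 0.895, adjusted p = 0.991 by edgeR) or for activin + HGF against activin (2.9, SE 0.948, adjusted p = 0.0698), where leaving out activin + HGF replicate 2 or replicate 3 gave a call.

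The genes whose pattern lay nearest to that of KCNQ1OT1 were small nucleolar RNAs with the same single high library. SNORA4 had 22.6 CPM in activin + HGF replicate 1 and 0.688 to 1.52 CPM in the other libraries. SNORA63B had 7.26 CPM in activin + HGF replicate 1 and 0.49 to 1.08 CPM elsewhere. Their root mean square differences from KCNQ1OT1 were 0.32 and 0.44 log2 units over 9 libraries. The other members did not share this height, although activin + HGF replicate 1 was the highest library of its group for MALAT1 (265 CPM), PVT1 (62.3 CPM), NEAT1 (21.7 CPM) and UCA1 (14.2 CPM) and the lowest for TUG1 (23.9 CPM) and MIR31HG (1.69 CPM). The part of the library in these values was not tested beyond leaving it out.

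**Figure D4:**
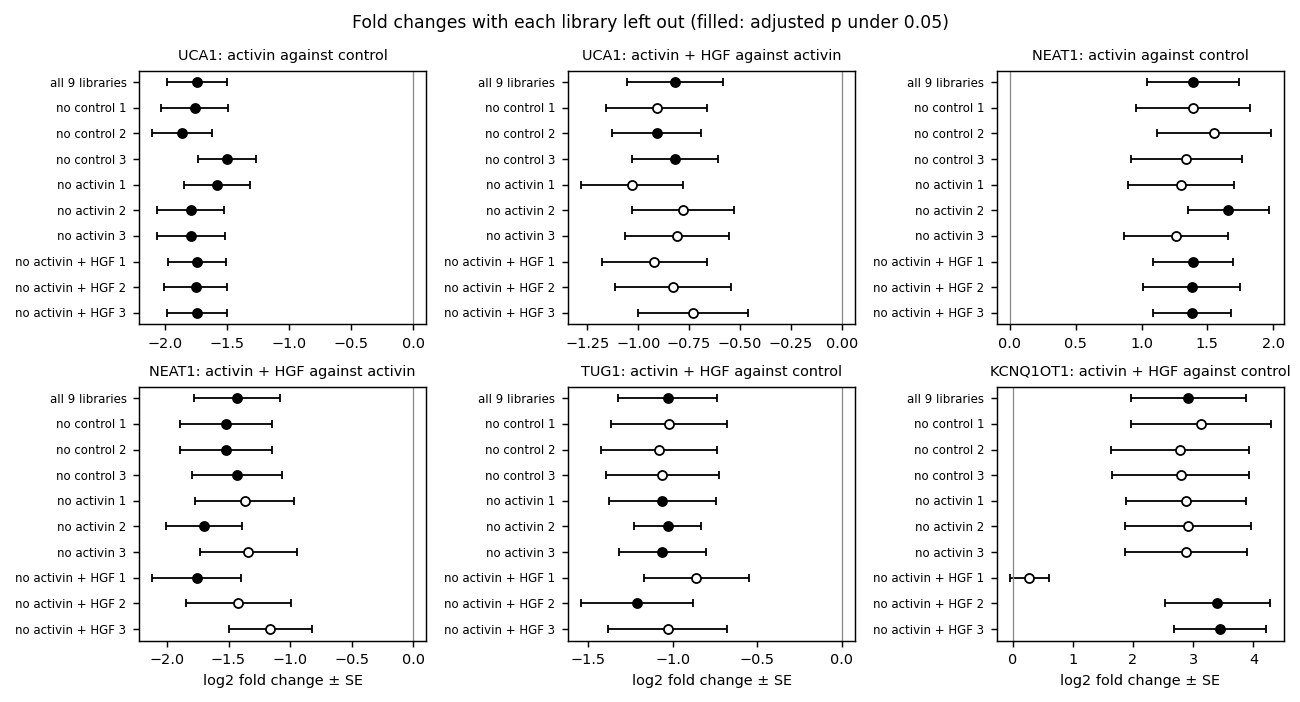
Log2 fold change and approximate standard error for called comparisons of UCA1, NEAT1, TUG1 and KCNQ1OT1, with all 9 libraries in the top row and each library left out in the rows below, filled where the adjusted p was under 0.05. The called comparison of UCA1 in activin + HGF against control is not drawn. UCA1 with activin stays filled in every row, and KCNQ1OT1 drops to 0.28 without activin + HGF replicate 1.

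The protein-coding genes that KCNQ1OT1 is known to silence on 1 chromosome copy were higher after treatment. CDKN1C, which encodes the cell cycle inhibitor p57, was at 5.65, 6.14 and 5.33 CPM in control, 36.7, 57.7 and 26.0 CPM in activin and 239, 103 and 101 CPM in activin + HGF libraries. The groups did not overlap, and CDKN1C rose 7.02-fold with activin (log2 fold change 2.81, SE 0.389, adjusted p = 0.00106 by edgeR's quasi-likelihood test) and 25.9-fold with activin + HGF (4.69, SE 0.423, adjusted p = 5.94e-05) over control. PHLDA2, a growth restraining gene of placenta, rose 2.01-fold with activin (adjusted p = 0.0232 by edgeR, lost without control replicate 1 or control replicate 3) and a further 3.66-fold when HGF followed (adjusted p = 0.00479). SLC22A18, a membrane transporter, rose 5.4-fold with activin (adjusted p = 5.12e-05 by edgeR) and was at 31.4 ± 2.23 CPM in activin + HGF beside 47.1 ± 9.53 CPM in activin cells (adjusted p = 0.0649).

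KCNQ1, a potassium channel gene, was at 10.7, 12.6 and 9.31 CPM in control, 14.5, 24.4 and 12.1 CPM in activin and 30.4, 27.0 and 28.7 CPM in activin + HGF libraries. It rose 2.64-fold with activin + HGF over control (log2 fold change 1.4, SE 0.264, adjusted p = 0.00304 by edgeR's quasi-likelihood test). The library with 63.6 CPM of KCNQ1OT1 had 30.4 CPM of KCNQ1, beside 27.0 and 28.7 CPM in the other activin + HGF libraries. That library was also the highest of its group for CDKN1C (239 CPM beside 103 and 101) and PHLDA2 (978 CPM beside 628 and 603). For SLC22A18 it was the lowest (28.8 CPM beside 32.9 and 32.4). A link between KCNQ1OT1 and these genes was not tested. Of 9 tested protein-coding genes within 250 kb of KCNQ1OT1, 3 rose with activin, 3 rose between activin and activin + HGF and 6 rose with activin + HGF over control, and none fell in any comparison. Among all genes tested, 9.58%, 7.41% and 16.4% were higher in the same order, and 8.41%, 5.45% and 15.0% were lower. Data on which chromosome copy these RNAs came from were not used here.

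**Figure D5:**
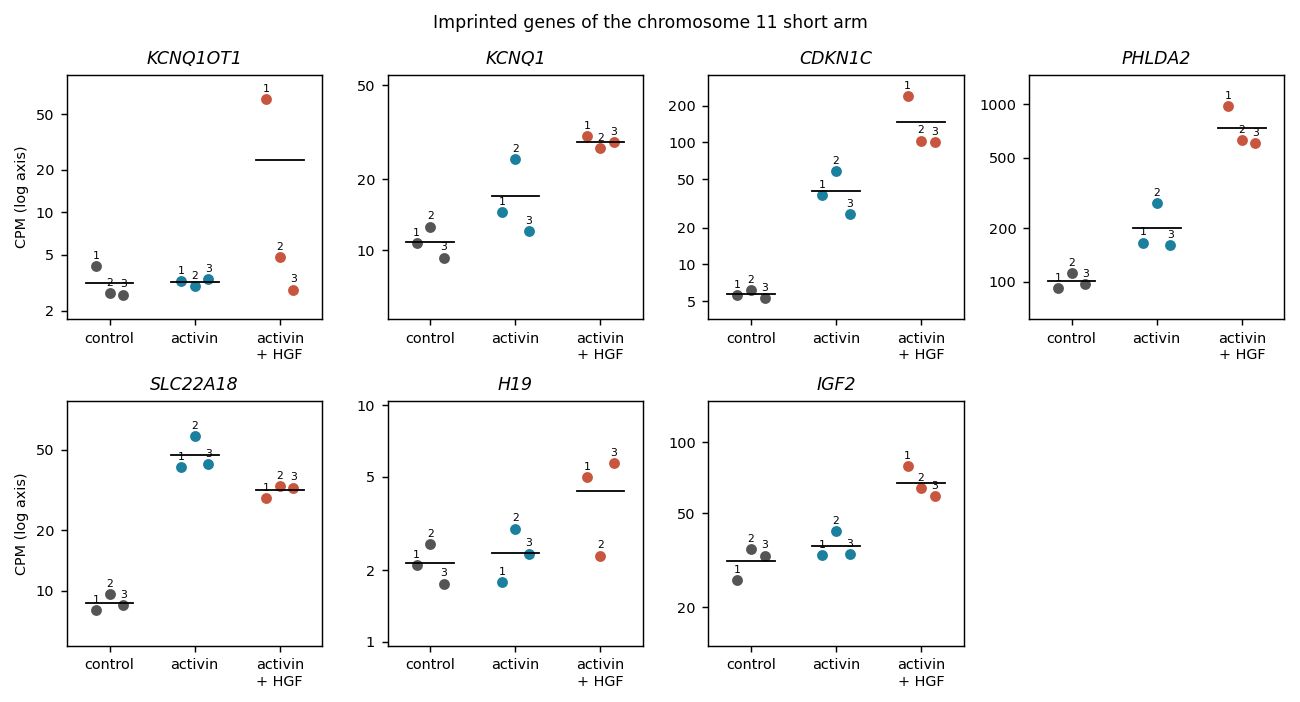
CPM of KCNQ1OT1, H19 and 5 protein-coding genes of the imprinted region on chromosome 11 in each library on log axes, with numbered points for the libraries and a line at each group mean. CDKN1C and PHLDA2 step up without overlap of the groups, whereas KCNQ1OT1 is high in 1 library only.

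H19 (ENSG00000130600, chr11:1995176-2001470, minus strand) was low and its groups overlapped. H19 was at 2.11, 2.59 and 1.76 CPM in control libraries, while the activin libraries had 1.78, 3.01 and 2.36 CPM and the activin + HGF libraries 4.96, 2.31 and 5.71 CPM. Activin + HGF replicates 1 and 3 lay above all other libraries, but replicate 2 lay among the controls. The log2 fold change was 1.01 for activin + HGF against control (SE 0.379, adjusted p = 0.0665 by edgeR's quasi-likelihood test, and 0.023 without activin + HGF replicate 2), 0.86 against activin (SE 0.377, adjusted p = 0.154) and 0.14 for activin against control (SE 0.376, adjusted p = 0.844). IGF2, the growth factor gene that shares an imprinting control region with H19, rose with activin + HGF over activin (log2 fold change 0.9, SE 0.194, adjusted p = 0.0172 by edgeR) and over control (1.1, SE 0.194, adjusted p = 0.00225), from 31.5 ± 4.84 to 67.4 ± 10.3 CPM, and the call against activin was lost without activin replicate 1 or activin replicate 3.

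PVT1 (ENSG00000249859, chromosome 8) was called in no comparison by the fit over all 9 libraries. PVT1 was at 39.6, 42.7 and 38.7 CPM in control libraries, while the activin libraries had 24.0, 32.2 and 24.0 CPM and the activin + HGF libraries 62.3, 31.6 and 32.4 CPM. The activin libraries all lay below the control libraries, and the activin + HGF libraries lay on both sides of them. The log2 fold change with activin was -0.59 (SE 0.266, adjusted p = 0.157 by edgeR's quasi-likelihood test), and without the library activin + HGF replicate 1, which adds to the shared estimate of spread, the adjusted p was 0.0294. For activin + HGF against control it was 0.06 (SE 0.265, adjusted p = 0.884), and the sign turned with total scaling and without activin + HGF replicate 1. MYC, beside PVT1, spanned 11.1 to 156 CPM within the activin libraries and was not called in any comparison. MYC was at 20.1, 26.2 and 21.3 CPM in control and at 30.7, 16.1 and 151 CPM in activin + HGF libraries.

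MIR31HG (ENSG00000171889, chr9:21453802-21559900, minus strand) differed least between groups in TMM-scaled CPM. It ranged from 1.7 to 2.62 CPM in control, 1.9 to 2.42 CPM in activin and 1.69 to 2.17 CPM in activin + HGF libraries, so that all groups overlapped on this scale. In deposited FPKM the activin + HGF libraries (0.39, 0.59 and 0.58) lay below the activin libraries (0.74, 0.73 and 0.67). The log2 fold changes were -0.01, -0.1 and -0.11, each with an SE of 0.3, and differences within these errors were not detectable. The second value was -0.43 with total scaling (SE 0.307, adjusted p = 0.356 by edgeR's quasi-likelihood test). MTAP, an enzyme of the methionine salvage pathway on the same arm of chromosome 9, fell from 114 ± 12.9 to 59.5 ± 0.704 CPM with activin (log2 fold change -0.94, SE 0.263, adjusted p = 0.0319 by edgeR's quasi-likelihood test), a call lost when any control or activin library was left out, and to 42.9 ± 16.6 CPM with activin + HGF (-1.41 against control, SE 0.266, adjusted p = 0.00304). CDKN2B, a cell cycle inhibitor gene further along the arm, rose with activin (log2 fold change 1.03, SE 0.197, adjusted p = 0.00578 by edgeR).

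Among the 15 partner genes named for these loci, 6 rose and 1 fell with activin, 5 rose and 1 fell between activin and activin + HGF, and 9 rose and 1 fell with activin + HGF over control. The middle count of 6 calls was 2 without activin replicate 1 or activin replicate 3. Over all 55 tested protein-coding genes within 250 kb of the 8 loci, 8 rose and 2 fell, 10 rose and 4 fell, and 20 rose and 6 fell in the same order, or 18.2%, 25.5% and 47.3% beside the background shares given for each comparison. The middle count of 14 was 4 without activin replicate 1, 5 without activin replicate 3, 9 without control replicate 3 or activin + HGF replicate 1 and 22 without activin replicate 2. Noncoding RNAs of the same loci were low, with 5 of 10 listed genes tested and none called by edgeR in any comparison, while 0, 1 and 3 of the 5 had an unadjusted p under 0.05 and DESeq2 called 0, 0 and 1. The shares of all genes tested that edgeR called were those given above.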

How the data were processed

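Total RNA of 9 HCT116 libraries was depleted of ribosomal RNA and sequenced by the study. The authors deposited 1 table with read counts and FPKM per gene and library. The submitters' processing notes name cutadapt 1.9, HISAT2 2.0.4 and StringTie 1.3.4d. The genome build is not given in the sources used here, and 87.0% of 32930 gene IDs shared with GENCODE 29 had a gene boundary in common with it, so coordinates are as in the table and fit GRCh38. Of counts from 1 to 40, 35.0% were multiples of 4, so the counts may not be single reads, and counts divided by 4 were an alternative. Groups came from titles and treatment labels.

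Counts were filtered with filterByExpr, scaled by TMM and fitted with edgeR 4.0.16 (glmQLFit, glmQLFTest, R 4.3.3) over all 9 libraries with 3 group means, and p-values were adjusted by Benjamini-Hochberg over 20988 genes. Standard errors are approximate, from the fold change and its F. The code was tested on simulated data. Libraries of a group differed beyond sampling noise. Libraries with the same number did not deviate together (correlations from -0.0606 to 0.0882 over 9 pairs), so they were not treated as pairs.

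The genes and gene lists were chosen by name with earlier results of these data known, and the text names all members, the partner genes of their loci and examples of each list. A list is described by counts, with no set test. Nearest patterns are the 2 genes with the smallest root mean square difference of centred log2 CPM. Alternatives were RLE and total scaling, no filter, DESeq2 1.42.0, limma 3.58.1 on log2(FPKM + 0.1) or log2(FPKM + 1), a replicate block, only the groups compared, stricter thresholds, leaving out each library and, chosen after seeing the data, a robust fit. Some items withheld from this text are not reported here.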

Additional observations from a re-analysis of the deposited data

How the results depend on the processing

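With each library left out in turn, the long noncoding RNAs called numbered 1 to 3 for activin against control, 0 to 2 for activin + HGF against activin and 1 to 4 for activin + HGF against control. The replicate block left 2, 1 and 2 calls in these comparisons, and the correlations of same-numbered libraries gave no sign of pairing. An adjusted p under 0.01 left 1, 0 and 1 calls. DESeq2 gave 2, 3 and 4 calls. It added KCNQ1OT1 in activin + HGF against activin (adjusted p = 0.0371) and H19 in activin + HGF against control (adjusted p = 0.0391). With only the groups compared, edgeR called PVT1 in activin against control (adjusted p = 0.0499). The middle comparison had 1 call without a filter on low counts or with an added log2 fold change of at least 1, and 0 calls when only the groups compared were fitted, and activin against control had 1 call by limma on log2(FPKM + 0.1) without a filter. Scaling by library totals moved the median log2 fold change of all genes to 0.10, -0.38 and -0.30, and the values of the set shifted with it.

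Signs turned only for uncalled values. MALAT1 in activin + HGF against activin was -0.21 with total scaling, and -0.21 to 0.47 with a library left out. PVT1 in activin + HGF against control was -0.24 with total scaling, -0.28 and -0.16 by limma with a pseudocount of 0.1 and 1, -0.28 without the filter, and -0.33 to 0.23 with a library left out. MIR31HG in activin against control was 0.0 with RLE factors, counts divided by 4 or only the groups compared, 0.06 with total scaling, 0.01 with the replicate block, 0.07, 0.03 and 0.07 by limma with a pseudocount of 0.1, of 1 and without the filter, and -0.11 to 0.15 with a library left out. With a library left out, NEAT1 in activin + HGF against control was -0.38 to 0.23, KCNQ1OT1 in activin against control -0.1 to 0.32, H19 in activin against control -0.06 to 0.35, TUG1 in activin against control -0.5 to 0.02, and MIR31HG -0.26 to 0.01 in activin + HGF against activin and -0.3 to 0.05 in activin + HGF against control. The causes were not tested. Of the group levels, 12 moved by more than 1 SD between FPKM and CPM per kilobase of GENCODE 29 exons. With 3 libraries a group, an exact permutation test of a single gene could not go below p = 0.1, and low counts limit H19, MIR31HG and KCNQ1OT1.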

Other observations

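Of 40 other long noncoding RNAs studied in cancer, 29 were tested. Of these, 8 rose and 1 fell with activin, 2 rose and 2 fell between activin and activin + HGF, and 8 rose and 2 fell with activin + HGF over control, or 31.0%, 13.8% and 34.5% beside 18.0%, 12.9% and 31.4% of all genes tested. The list median log2 fold change was 0.58, -0.07 and 0.15. The totals stayed within 1.5 times under all alternatives run. GAS5 and ZFAS1 are hosts of small nucleolar RNAs. GAS5 was at 103 ± 3.04, 413 ± 38.9 and 1090 ± 338 CPM over control, activin and activin + HGF cells (SD, n = 3), and ZFAS1 at 71.9 ± 8.03, 276 ± 28.9 and 721 ± 214 CPM. Against control, activin gave log2 fold changes of 2.01 for GAS5 (adjusted p = 0.000263 by edgeR's quasi-likelihood test) and 1.94 for ZFAS1 (adjusted p = 0.000341). For activin + HGF against activin they were 1.4 (adjusted p = 0.0055 by the same test) and 1.38 (adjusted p = 0.0059). The values of activin + HGF cells include activin + HGF replicate 1, and those of GAS5 and ZFAS1 are not given without it.

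LUCAT1 rose from 1.16 ± 0.202 to 13.2 ± 3.75 CPM with activin (log2 fold change 3.5, adjusted p = 0.000124 by edgeR's quasi-likelihood test), and CRNDE, named for its expression in colorectal neoplasia, from 2.21 ± 0.604 to 5.92 ± 1.36 CPM (1.42, adjusted p = 0.00861). DLEU2, a host of miR-15a and miR-16-1, rose with activin (log2 fold change 1.06, adjusted p = 0.00642 by edgeR) and fell when HGF followed (-2.03, adjusted p = 0.0015), from 14.7 ± 1.7 to 3.6 ± 0.401 CPM. LINC01234 was the only listed gene that fell with activin, from 43.4 ± 1.89 to 9.86 ± 4.11 CPM (-2.14, adjusted p = 0.000824 by edgeR). Of the abundant noncoding RNAs often seen after ribosomal depletion, 6 of 10 were tested and 2 rose with activin, beside 9.58% of all genes tested. These were RN7SL1 and SNORD3A, which stood at 3.16 ± 1.6 and 2.42 ± 0.945 CPM in activin cells. The count was 0 without control replicate 2, control replicate 3, activin replicate 1 or activin replicate 2 and 1 without control replicate 1 or activin + HGF replicate 2.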
